A study of Mus musculus with 8 samples.

Results

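Fabp3, Fabp5 and Fabp7 encode the fatty acid binding proteins of the adult brain, and their RNA was followed here in the hippocampus of mice exposed to bisphenol A (BPA) before weaning. The members were taken by gene symbol from the deposited count table and are 3 of its 24527 genes. All 3 passed the filter on low counts, which kept 15434 genes. Fabp5 was chosen by its measured levels, being among the genes higher in every BPA library, so its difference between the groups is given as a description with no test, while Fabp3 and Fabp7 were added as the other brain forms of the family.

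The BPA group was 4 male wild-type C57BL/6J mice whose feed during gestation and lactation was a low-phytoestrogen diet with 50 mg BPA per kg. The Control group was 4 males of the same strain and age on that diet with 0 mg BPA per kg. From weaning at postnatal day 21 all mice ate the control diet, and hippocampi were dissected at 20 weeks, so that no animal was on BPA when sampled. BPA, from which polycarbonate plastics are made, binds oestrogen receptors and other hormone receptors, and the study is titled for depressive-like behaviour with changes in neurotransmitters and neuroactive steroids.

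Fatty acid binding proteins are small cytosolic proteins that fold into a barrel around a long-chain fatty acid and carry it through the cell. They bring polyunsaturated fatty acids to membranes and enzymes, carry endocannabinoids to the enzymes that break them down, and pass ligands to nuclear receptors of the PPAR family. In rodent brain Fabp7 is made mainly by astrocytes, oligodendrocyte precursors and the radial glia-like stem cells of the dentate gyrus, Fabp3 by neurons, and Fabp5 by neurons, glia and the endothelium.

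The genes lie on different chromosomes of the mm10 (GRCm38) assembly, each with 4 coding exons on the plus strand. Fabp5 (ENSMUSG00000027533) is at chromosome 3, 10012548 to 10016607, Fabp3 (ENSMUSG00000028773) at chromosome 4, 130308595 to 130315463, and Fabp7 (ENSMUSG00000019874) at chromosome 10, 57784881 to 57788450. The first 150 coding bases of each are shown so that the members can be compared base by base. Capitals mark bases that are the same in all 3 in an alignment of the coding sequences, and the sequences come from the GENCODE M21 transcripts of GRCm38.
Fabp5: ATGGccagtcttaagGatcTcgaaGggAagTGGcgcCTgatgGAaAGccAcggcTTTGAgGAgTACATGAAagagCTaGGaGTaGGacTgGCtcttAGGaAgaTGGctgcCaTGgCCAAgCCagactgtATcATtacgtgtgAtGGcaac
Fabp3: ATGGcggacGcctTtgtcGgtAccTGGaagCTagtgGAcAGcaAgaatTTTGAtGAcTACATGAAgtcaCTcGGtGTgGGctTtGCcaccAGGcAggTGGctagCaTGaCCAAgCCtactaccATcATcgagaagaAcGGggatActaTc
Fabp7: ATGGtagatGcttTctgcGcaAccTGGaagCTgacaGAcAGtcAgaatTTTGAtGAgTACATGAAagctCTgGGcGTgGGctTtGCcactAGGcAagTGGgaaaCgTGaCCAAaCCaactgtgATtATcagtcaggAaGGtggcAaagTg
The Fabp5 stretch covers chromosome 3, 10012640 to 10012718 in exon 1 and 10014971 to 10015041 in exon 2. That of Fabp3 covers chromosome 4, 130308778 to 130308850 and 130312291 to 130312367, and that of Fabp7 chromosome 10, 57785009 to 57785081 and 57785506 to 57785582, again in exons 1 and 2. Over the whole coding sequence 42.0% of 405 alignment columns were identical in all 3 genes. Fabp3 and Fabp7 were the closest pair, at 66.4% identity, against 56.5% for Fabp3 with Fabp5 and 56.2% for Fabp5 with Fabp7. The longest run of bases shared between the messenger RNAs was 20 for Fabp3 and Fabp7, 13 for Fabp5 and Fabp7 and 10 for Fabp3 and Fabp5.

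Copies elsewhere in the genome resemble the members more than the members resemble each other. Fabp5 had 5 processed pseudogenes with 93.6% to 98.3% identity over at least 100 aligned bases, Fabp3 had 1, Fabp3-ps1, with 99.3% identity, and Fabp7 had 0. None of these 6 has a row in the count table. How the authors treated reads that match several places is not stated in the labels, so the levels of Fabp5 and Fabp3 are uncertain to the extent that such reads were dropped or assigned elsewhere. Fabp3 also overlaps 2 genes on the opposite strand, Gm10570 by 80 bases at its start and Zcchc17 by 81 bases at its end, and the labels do not say whether featureCounts was told the strand.

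Libraries held 43.1 to 54.01 M counts in BPA mice and 27.1 to 40.8 M counts in Control mice (M, 1e6). Every BPA library was deeper than every Control library (46.2 ± 5.24 M counts in BPA against 33.8 ± 5.96 M counts in Control mice, mean ± SD, n = 4 each; exact permutation, two-sided, p = 0.0286, which is the lowest this design allows), so depth and exposure cannot be told apart. Levels are given in CPM, which are counts per M counts of the library after TMM scaling, and fold changes as log2 of BPA over Control. Neuronal markers of hippocampus were abundant, with Camk2a, a kinase of excitatory synapses, at 4274 CPM in BPA and 4189 CPM in Control mice on average. Choroid plexus markers, from tissue inside the neighbouring ventricle, summed to 169 to 839 CPM in BPA and 213 to 3138 CPM in Control libraries, highest in BPA replicate 3 and Control replicate 2. A sum is led by its most abundant genes. Averaged over the markers on the log2 scale, the list ran from -1.88 in BPA replicate 2 to 3.09 in Control replicate 2, against the mean of the 8 libraries.

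Fabp5, the epidermal-type form and a carrier of endocannabinoids and PPAR ligands, was the most abundant of the 3. It was read 3570, 5176, 3766 and 3665 times in BPA replicates 1 to 4, against 2939, 2708, 2231 and 1853 times in Control replicates 1 to 4. After scaling, these were 79.8, 96.6, 86.8 and 84.5 CPM in BPA mice, against 72.6, 72.2, 72.02 and 70.6 CPM in Control mice. BPA replicate 2 was the highest, the Control values lay close together, and the groups did not overlap. Over all genes tested, 1.37% had every BPA library above every Control library, and nothing is read from Fabp5 being among them, since that is how it was chosen.

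The mean of Fabp5 was 86.9 ± 7.08 CPM in BPA and 71.9 ± 0.864 CPM in Control mice (SD, n = 4 each), a log2 fold change of 0.28 ± 0.055 (estimate ± SE), or 21.0% higher. In a bulk sample, more RNA per cell and more cells that express the gene cannot be told apart. Depth moves with this difference between the groups, and its part in the difference was not tested. The deepest library, BPA replicate 2 with 54.01 M counts, had the highest Fabp5. The shallowest BPA library, replicate 3 with 43.12 M counts, had the second highest. Among Control mice the levels followed the order of the totals, but they varied less than counting reads alone gives, so nothing is read from that order. With log2 library total as a covariate the fold change was 0.17 ± 0.082, and when all libraries were thinned to the smallest total it was 0.27. Choroid plexus markers were lowest in BPA replicate 2, and without BPA replicate 3 and Control replicate 2, which had the most, the fold change of Fabp5 was 0.28.

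The spread of Fabp5 was unlike in the groups. Its Control values varied by a CV of 1.20%, with a variance 0.309 times what counting reads alone gives, whereas the BPA values varied by 8.15%, 28.6 times the counting variance. Without BPA replicate 2 the BPA values still varied 6.66 times more than counting gives, at 83.7 ± 3.55 CPM (n = 3). The difference in spread was not tested. The SE above rests on a spread shared by both groups.

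Fabp3, the heart-type form that neurons make in brain, had almost the same level in every animal. It was at 15.2, 15.3, 15.2 and 14.5 CPM in BPA replicates 1 to 4, against 15.4, 15.8, 14.01 and 15.8 CPM in Control replicates 1 to 4. The 4 BPA values lay inside the Control range. The means were 15.1 ± 0.355 CPM in BPA and 15.2 ± 0.851 CPM in Control mice (SD, n = 4 each), with a log2 fold change of -0.017 ± 0.059 and a fold of 0.988 (95% interval 0.904 to 1.08). The difference did not pass the test (edgeR quasi-likelihood, Benjamini-Hochberg adjusted p = 0.981 over all genes). No animal departed far from the rest: the variance was 0.378 times the counting variance in BPA and 1.48 times in Control mice.

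Fabp7, the brain-type form that marks radial glia and astrocytes, varied most from animal to animal. It was at 16.4, 14.9, 9.54 and 14.3 CPM in BPA replicates 1 to 4, against 14.03, 14.9, 15.3 and 13.2 CPM in Control replicates 1 to 4. BPA replicate 3 was lower than all 7 other libraries, and the remaining BPA values overlapped the Control range. The means were 13.8 ± 2.96 CPM in BPA and 14.4 ± 0.936 CPM in Control mice (SD, n = 4 each), with a log2 fold change of -0.061 ± 0.13 and a fold of 0.958 (95% interval 0.787 to 1.17), which did not pass (edgeR adjusted p = 0.972). Without BPA replicate 3 the sign turned, to 0.077 (edgeR adjusted p = 0.850), and the BPA mean was 15.2 ± 1.07 CPM (n = 3).

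Counting noise was small beside the dip of Fabp7 in BPA replicate 3, which held 414 reads of it, against 619 to 800 in the other BPA libraries. The variance among BPA mice was 27.9 times the counting variance, or 3.38 times without that library, against 1.81 times among Control mice. Of all genes tested, 84.0% had a smaller spread within groups than Fabp7, 33.3% a smaller one than Fabp5 and 17.2% a smaller one than Fabp3.

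Of Fabp3 and Fabp7, 0 passed the adjusted threshold of 0.05, as did 0 of the 15434 genes tested (0%). At an unadjusted p under 0.05 edgeR had 698 genes (4.52%), of which 343 (2.22%) were higher and 355 (2.30%) lower in BPA mice, and neither of these members was among them. DESeq2 called 7 genes over the whole table and limma-voom 0.

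**Figure D1:**
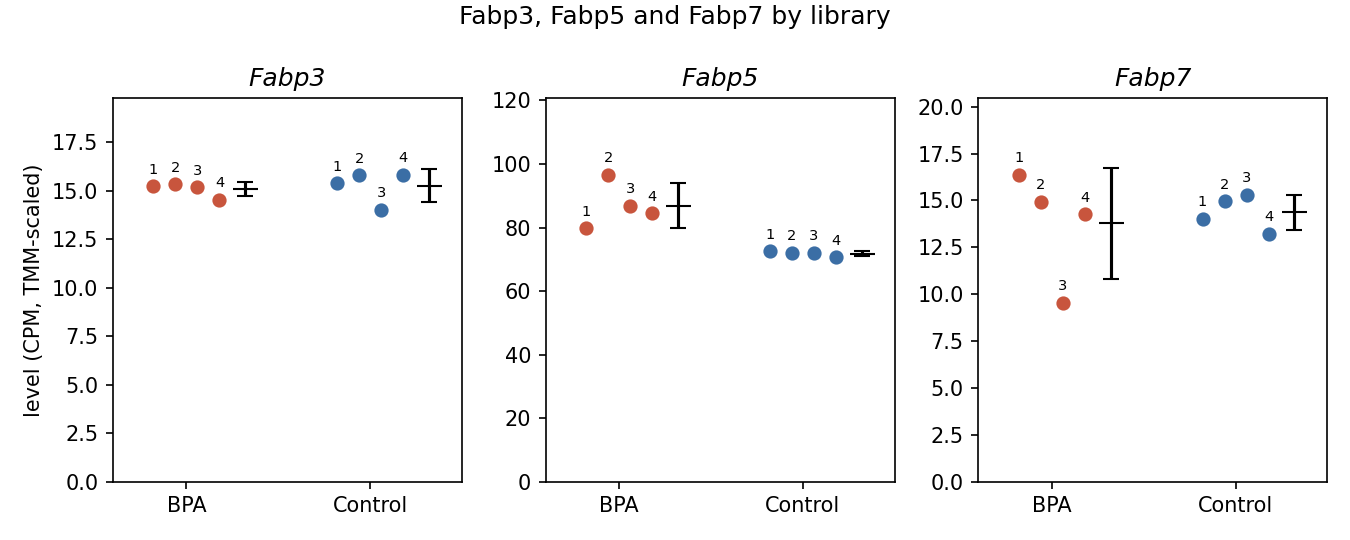
Level of Fabp3, Fabp5 and Fabp7 (y axis, CPM after TMM scaling) in each library, with BPA mice in orange and Control mice in blue, the replicate number above each point, and the mean ± SD as a black bar (n = 4 each). The BPA values of Fabp5 run from 79.8 to 96.6 CPM above all Control values, while Fabp7 has a single low point at 9.54 CPM in BPA replicate 3.

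Compared per length, over the exons of RefSeq transcripts, Fabp5 stood well above the other members. Its mean over the 8 libraries was 80.4 ± 9.44 CPM per kb, against 18.4 ± 0.743 for Fabp3 and 17.5 ± 2.56 for Fabp7 (SD, n = 8). Fabp5 exceeded 96.1% of the 14916 tested genes with a known length, Fabp3 78.4% and Fabp7 77.3%, where the median gene was at 5.54 CPM per kb. In every library Fabp5 was the highest of the 3, by 3.83 to 7.41 times over Fabp7. Fabp3 and Fabp7 were neighbours in this order and did not differ beyond their spread: the ratio of Fabp3 to Fabp7 was 1.11 ± 0.295 in BPA and 1.04 ± 0.113 in Control mice, and ran from 0.894 to 1.55.

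Ratios between members do not depend on how libraries are scaled. The ratio of Fabp3 to Fabp5 per length was 0.229, 0.190, 0.210 and 0.206 in BPA replicates 1 to 4, against 0.254, 0.263, 0.233 and 0.269 in Control replicates 1 to 4. It did not overlap between the groups, with BPA lower, which repeats the difference in Fabp5 and is no separate evidence of it. The ratio of Fabp5 to Fabp7 was 5.37 ± 1.46 in BPA and 4.08 ± 0.240 in Control mice, with overlapping values.

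The other 7 fatty acid binding proteins were close to silent and none passed the filter on low counts. Pmp2, the myelin form, had 20 reads in BPA and 13 in Control libraries, and Fabp4, the adipocyte form, had 21 in BPA and 13 in Control libraries. Fabp12 had 1 read in BPA and 4 in Control libraries, Fabp1, the liver form, had 1 in BPA and 3 in Control libraries, and Fabp6 and Fabp9 each had 1 in BPA and 0 in Control libraries. Fabp2, the intestinal form, had 0 reads in 320.04 M counts, which allows a level of up to 0.00937 CPM (3 reads over all libraries, for counting error only). Fabp4, Fabp9, Fabp12 and Pmp2 lie in the same cluster on chromosome 3 as Fabp5, 163 to 228 kb beyond its end, so a single member of that cluster accounted for nearly all of its reads. Adipocyte markers, with Fabp4 itself among them, summed to 0.392 to 0.876 CPM in BPA and 0.258 to 0.838 CPM in Control libraries.

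Crabp1 and Crabp2, relatives that carry retinoic acid in a barrel of the same kind, were also weaker than the 3 brain forms. Crabp1 was at 0.423 ± 0.144 CPM in BPA and 0.264 ± 0.0534 CPM in Control mice (log2 fold change 0.70 ± 0.32, edgeR adjusted p = 0.955). Crabp2 was at 0.891 ± 0.957 CPM in BPA and 0.652 ± 0.555 CPM in Control mice, with a log2 fold change of 0.36 ± 0.68 that turned to -0.68 without BPA replicate 3. Neither passed. Rbp2 and Rbp7 had 7 and 6 reads in all and were not tested.

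**Figure D2:**
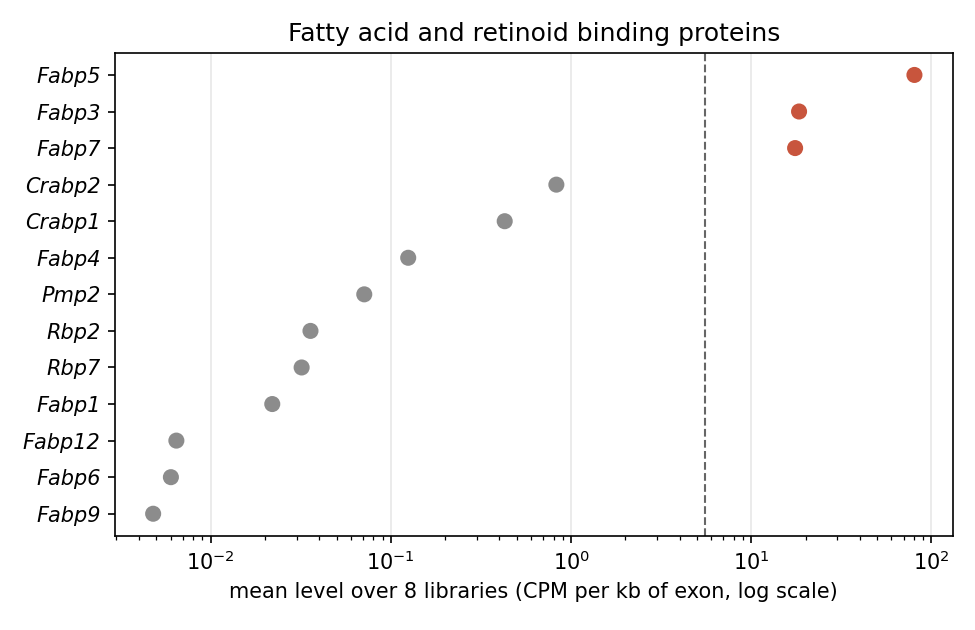
Mean level over 8 libraries (x axis, CPM per kb of exon, log scale) of fatty acid and retinoid binding proteins with at least 1 read, with Fabp3, Fabp5 and Fabp7 in orange, the others in grey, and the median tested gene as a dashed line. Fabp5 at 80.4 CPM per kb leads Fabp3 at 18.4 and Fabp7 at 17.5, and every other gene drawn lies below the dashed line at 5.54.

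The pathway in which these carriers act was compared next, through 6 lists of 87 genes in all. Of the 84 tested, 0 passed the adjusted threshold, 34 were above and 50 below a log2 fold change of 0, and the median was -0.016, against 50.0% above 0 and a median of 0.000049 over all genes. At an unadjusted p under 0.05 there were 0 higher and 3 lower genes, or 3.57%, which is near the 4.52% of all genes.

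Among the genes for fatty acid uptake and activation, 9 of 14 tested were above 0 and 5 below (median 0.018). Acsl6, which activates polyunsaturated fatty acids in neurons, was at 196 ± 5.06 CPM in BPA and 186 ± 4.31 CPM in Control mice (0.073 ± 0.041). Dbi, the acyl-CoA binding protein, was at 44.5 ± 3.95 CPM in BPA and 41.6 ± 3.29 CPM in Control mice (0.095 ± 0.072, or 0.059 without Control replicate 3 and 0.16 without BPA replicate 3). These 2 had the smallest p of the list, and neither passed.

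For fatty acid synthesis, elongation and desaturation, 6 of 16 were above 0 and 10 below (median -0.026). Scd1, a desaturase that makes oleate, was at 163 ± 9.36 CPM in BPA and 179.96 ± 6.20 CPM in Control mice (-0.14 ± 0.050, edgeR adjusted p = 0.955). Its values were 155 to 174.9 CPM in BPA and 175.3 to 189 CPM in Control mice, without overlap, as in 1.43% of all genes tested, but it did not pass. Fads2, which starts the conversion of essential fatty acids, was at 56.2 ± 2.23 CPM in BPA and 52.2 ± 3.56 CPM in Control mice (0.11 ± 0.054, or 0.066 without Control replicate 3).

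Genes of fatty acid oxidation and PPAR targets were split, with 7 of 17 above 0 and 10 below (median -0.0049). Hadha, a subunit of the mitochondrial trifunctional protein, had a log2 fold change of 0.083 ± 0.049, and Cpt2, which takes acyl groups into the matrix, -0.19 ± 0.12 (-0.12 without BPA replicate 4). Of the nuclear receptors, listed together with the coactivator gene Ppargc1a, 6 of 10 were above 0 and 4 below (median 0.032). Ppard, the receptor to which Fabp5 is known to hand ligands, was at 17.6 ± 0.780 CPM in BPA and 17.2 ± 0.488 CPM in Control mice, and is named here although the rule did not choose it. Rxra, the partner of PPARs, had 0.088 ± 0.070 (0.043 without Control replicate 4) and the coactivator Ppargc1a 0.045 ± 0.043 (0.022 without that library). None of these passed.

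Of 14 genes listed for the handling of arachidonate and endocannabinoids, which Fabp5 and Fabp7 carry, 4 were above 0 and 10 below (median -0.043). The 10 include Hsd11b1, a glucocorticoid enzyme that handles neither (-0.092 ± 0.12), so it is also in the count over the 6 lists. Cnr1, the cannabinoid receptor, was at 272 ± 5.37 CPM in BPA and 294 ± 21.3 CPM in Control mice (-0.11 ± 0.053, or -0.060 without Control replicate 4). Ptges, a prostaglandin E synthase, had -0.34 ± 0.18 (-0.23 without BPA replicate 2), and neither passed (edgeR adjusted p = 0.955 for each).

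Regulators of Fabp7 were the pathway list with the largest share on 1 side, 2 above 0 and 11 below of 13 (median -0.034), with 0 past the adjusted threshold. Notch signalling is known to switch on Fabp7 in radial glia. Notch1 was at 28.3 ± 1.94 CPM in BPA and 31.4 ± 2.73 CPM in Control mice (-0.15 ± 0.070), and Hes5, a Notch target, at 1.85 ± 0.745 CPM in BPA and 3.10 ± 1.12 CPM in Control mice (-0.75 ± 0.32, or -0.51 without BPA replicate 4). Neither passed (edgeR adjusted p = 0.955 for each). Of the pathway genes given here, Acsl6, Hadha, Ppargc1a, Notch1 and Hes5 overlap a gene on the opposite strand. The overlap is of whole genes, introns included. Whether it reaches counted bases, which would make their counts uncertain, was not examined.

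**Figure D3:**
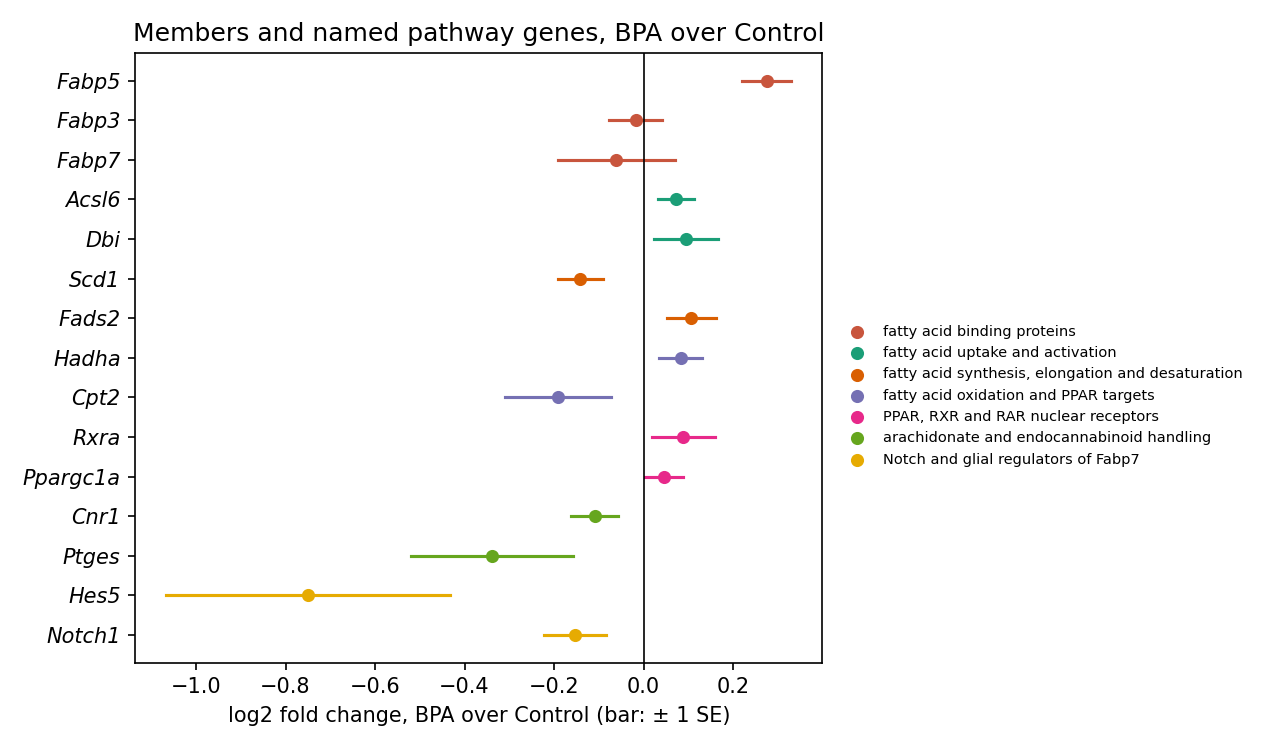
Log2 fold change of BPA over Control (x axis, bar ± 1 SE, from 4 against 4 mice) for Fabp5, Fabp3 and Fabp7 and for the 2 genes with the smallest p in each pathway list, coloured by list. Fabp5 lies at 0.28, Fabp3 at -0.017 and Fabp7 at -0.061, while the widest bar is that of Hes5, at -0.75.

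Markers of the cells that make the members were set beside them. The 129 marker genes tested in 15 lists held 0 past the adjusted threshold and had a median log2 fold change of -0.020. At an unadjusted p under 0.05 there were 2 higher and 6 lower markers, or 6.20%, against 4.52% of all genes. The lower ones included Slc1a2 of astrocytes (-0.25 ± 0.061), whose groups did not overlap, and Ermn and Ugt8a of oligodendrocytes (-0.13 ± 0.047 and -0.16 ± 0.054), and none of these passed (edgeR adjusted p = 0.955 for each). The 14 astrocyte markers had 8 above 0 and 6 below. Their summed level was 10569 to 11931 CPM in BPA and 11823 to 13419 CPM in Control libraries. It was led by the glutamate transporter gene Slc1a2, which overlaps a gene on the opposite strand. Slc1a2 was at 6979 ± 522 CPM in BPA and 8274 ± 705 CPM in Control mice. Markers of radial glia-like stem cells, progenitors and immature neurons, with 6 of 13 above 0, summed to 257 to 283 CPM in BPA and 257 to 272 CPM in Control libraries. Endothelial and pericyte markers, with 7 of 13 above 0, summed to 439 to 495 CPM in BPA and 461 to 498 CPM in Control libraries. Of these 13 markers, 1 was lower at an unadjusted p under 0.05 and did not pass. Its groups did not overlap, as in 1.43% of all genes tested. Striated muscle markers, included because Fabp3 is the heart form, had 2 of 4 above 0 and summed to 24.1 to 27.3 CPM in BPA and 25.4 to 26.2 CPM in Control libraries. In these 4 lists 0 markers were at 0 reads, although Ckm, Actc1, Mb and Myl2 of muscle and Tfap2c of progenitors were under the filter.

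Some other marker lists leaned to 1 side, in part through single libraries. All 10 dentate granule cell markers were above 0. Their sum was 782 to 851 CPM in BPA libraries, against 603, 831, 863 and 669.7 CPM in Control replicates 1 to 4, so that Control replicates 1 and 4 were low and the other 2 lay within or above the BPA range. All 12 choroid plexus markers were below 0, and their sum was 364, 169, 839 and 234 CPM in BPA replicates 1 to 4, against 287, 3138, 213 and 310.5 CPM in Control replicates 1 to 4, where a single library stood out. All 7 ependymal markers tested were below 0, at 15.1 to 26.03 CPM in BPA and 18.98 to 37.3 CPM in Control libraries. Oligodendrocyte precursor markers, with 2 of 8 above 0, summed to 263 to 274 CPM in BPA and 261 to 284 CPM in Control libraries, and oligodendrocyte markers, with 3 of 10 above 0, to 1402 to 1553 CPM in BPA and 1451 to 1709 CPM in Control libraries. The summed levels of markers of neurons (3 of 8 above 0), interneurons (6 of 10), microglia (4 of 10) and meninges and fibroblasts (4 of 9) overlapped between the groups. The 4 haemoglobin genes of the blood list were at 0 reads in every library. Alas2, the other gene of that list, had 704 reads in all. It was at 2.18 ± 0.259 CPM in BPA and 2.20 ± 0.268 CPM in Control mice, and overlaps genes on the opposite strand. The 0 reads are therefore not read as a lack of blood. The part of any of these cells in the levels of the members was not tested.

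The low Fabp7 of BPA replicate 3 was set beside the marker lists in that library. Against the mean of the 8 libraries on the log2 scale, Fabp7 was at -0.54 there, astrocyte markers were at -0.010, oligodendrocyte precursor markers at -0.064 and progenitor markers at -0.069. The precursor value was the lowest of the 8 libraries, where the others ran from -0.040 to 0.095, and the progenitor value lay between -0.11 and 0.16, the range of the others. That library was high in markers of choroid plexus (1.36), meninges and fibroblasts (1.23) and endothelium (0.14), and low in ependymal markers (-0.52). BPA replicate 2, with the highest Fabp5 (0.29), had the least choroid plexus signal (-1.88).

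**Figure D4:**
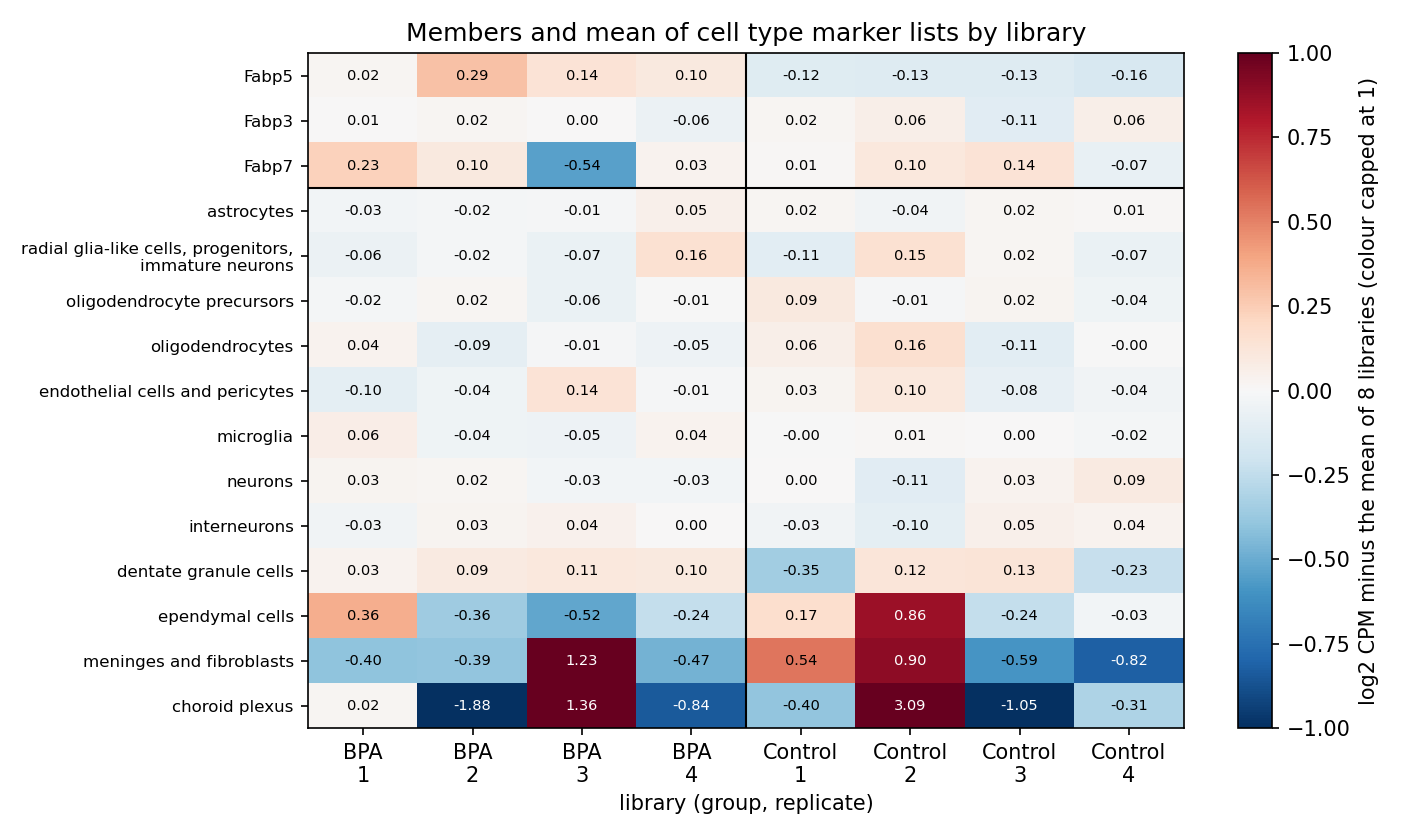
Log2 CPM minus the mean of the 8 libraries for each member (top 3 rows) and the mean of each cell type marker list (rows below), by library (columns, BPA left and Control right), with the value printed in each cell. Fabp7 is at -0.54 in BPA replicate 3 while astrocyte markers are at -0.010, and choroid plexus markers range from -1.88 to 3.09.

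No shared movement of the 3 members between animals was detected over these 8 libraries. With group means removed, Pearson's r over the 8 libraries was 0.087 for Fabp3 and Fabp5, -0.17 for Fabp3 and Fabp7 and -0.089 for Fabp5 and Fabp7 (two-sided exact permutation within groups, p = 0.705, 0.589 and 0.872, each 0.872 when adjusted over the 3 pairs). Spearman's rho was 0.14, -0.12 and -0.071 (exact permutation p = 0.714, 0.755 and 0.873, each 0.873 when adjusted). Without the 2 libraries farthest from the median of the first gene, r was 0.025, 0.15 and -0.14. The estimates rest on single animals: leaving out 1 library, r for Fabp5 and Fabp7 was -0.75 without BPA replicate 2 and 0.42 without BPA replicate 1, and r for Fabp3 and Fabp5 was -0.18 without BPA replicate 2.

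The genes with profiles most like the members over the 8 libraries were found by the root mean square difference of log2 CPM, each centred on its mean. For Fabp5 they were Rp9 at 0.054, Faap20 at 0.064 and Vegfb at 0.067, and 132 of the tested genes lay within 0.1. Rp9 was at 13.2 CPM in BPA and 11.4 CPM in Control mice on average, Faap20 at 6.38 CPM in BPA and 5.28 CPM in Control mice, and the growth factor gene Vegfb at 56.04 CPM in BPA and 48.9 CPM in Control mice. Fabp3 was nearest to Fbxo38, Zfp101 and Uba2, at 0.022 to 0.026, and shared its flat profile with 5559 genes within 0.1. Only 4 genes came within 0.1 of Fabp7, and Mgme1 at 0.082, Nuf2 at 0.093 and Magel2 at 0.094 were the nearest named ones. These likenesses describe the libraries, Fabp5's include the group difference that chose it, and Rp9, Mgme1 and Magel2 overlap a gene on the opposite strand.

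Neighbours of the members along the chromosome were compared with them. Of the genes next to Fabp5, Pag1 had a log2 fold change of -0.042 ± 0.048 and the predicted gene Gm9833 0.053 ± 0.048. Leaving out 1 library, they ran from -0.072 to -0.015 for Pag1 and from 0.030 to 0.087 for Gm9833. Both genes overlap a gene on the opposite strand. Beside Fabp3, Serinc2 had -0.076 ± 0.13 and Zcchc17, which shares the 81 bases with it, 0.14 ± 0.050. Zcchc17 was at 52.2 ± 2.06 CPM in BPA and 47.4 ± 2.54 CPM in Control mice, more than Fabp3 itself. Beside Fabp7, Pkib had -0.21 ± 0.075 and Smpdl3a 0.0058 ± 0.083. Serinc2 turned to 0.010 without Control replicate 2, and Smpdl3a to -0.053 without Control replicate 1. None of the 6 passed (edgeR adjusted p 0.955 to 0.995).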

How the data were processed

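Hippocampal RNA of 8 mice was measured by RNA-seq with polyadenylated RNA selected and made into stranded ScriptSeq v2 libraries, per the labels. The authors deposited raw read counts per gene symbol, whole numbers that are not normalized. Trimmomatic 0.32, STAR 2.3.0e, featureCounts 1.5.0 and DESeq2 (no version) with mm10 are named in the submitters' processing notes, and refGene in the file headers. Columns were assigned through the library codes that sample titles carry. The series describes the replicates as independent, but names no litters, so each p-value speaks only of the spread among these 8 mice.

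From the counts, edgeR 4.0.16 (R 4.3.3) was run with filterByExpr, TMM scaling, a group term and the two-sided quasi-likelihood test, adjusted over all 15434 genes at 0.05. SEs come from the test statistic. Log2 CPM has a prior count of 2. DESeq2 1.42.0 and limma-voom (limma 3.58.1) were alternatives. The procedure was also run on simulated counts, but the outcome is not given here and lends no support to the results. In the shallowest library, counting error alone gives Fabp5 a CV of 2.32%. No replicate was a duplicate of another: the 12 pairs within groups had chi-square values of 9.69 to 23.5 per degree of freedom. Look-alike transcripts were sought with BLAST+ 2.17.0 at 90% identity, and coding sequences aligned in pairs with Biopython 1.88 and together with MAFFT 7.526. The promoter table held 2 of the 3 members and none is printed.

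Members and lists were chosen with earlier results of these data known. Named were the members, all relatives, the 2 pathway genes per list with the smallest p as none passed, the 3 nearest profiles and the flanking tested genes. The rule also takes the 2 most abundant markers of each list; those not given by name are in the summed levels.

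Relatives that did not pass the filter are given as reads, and some genes that the rule names are not reported here. Alternatives were other scalings, filters and tests, Rn45s left out, depth as a covariate or thinned, a replicate block, and each library left out. The fit without BPA replicate 3 and Control replicate 2 together was added after seeing the data.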

Additional observations from a re-analysis of the deposited data

How the results depend on the processing

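The log2 fold change of Fabp5 was 0.22 to 0.31 on leaving out 1 library; its sign could not turn there, since the gene was chosen for groups that do not overlap, and says nothing of stability. It moved by more than the replicate spread only with log2 library total as a covariate, to 0.17, and the cause was not tested. For Fabp3 it was -0.055 to 0.0010 on leaving out 1 library, turning sign without Control replicate 2. For Fabp7 it was -0.15 to 0.077, turning sign without BPA replicate 3, and was 0.095 without both BPA replicate 3 and Control replicate 2. Adjusted p was 0.835 or more for both under every alternative. With a replicate block the fold changes were 0.27 for Fabp5, -0.016 for Fabp3 and -0.080 for Fabp7, and 0 genes were called; the numbers are shared names only, since deviations of same-numbered libraries correlated from -0.37 to 0.070. The number of genes called was 0 in all other settings, leave-one-out from 0 to 0, except 7 with DESeq2, run on unfiltered counts; genes with an unadjusted p under 0.05 numbered 354 to 1167. Correlations between members were unstable on leaving out 1 library: -0.18 to 0.24 for Fabp3 and Fabp5, -0.27 to -0.026 for Fabp3 and Fabp7 and -0.75 to 0.42 for Fabp5 and Fabp7. Without TMM the last 2 were 0.032 and 0.019. Depth limits the 7 relatives with 34 reads or fewer, whose change was not detectable.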

Other observations

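BPA replicate 3, the library with low Fabp7, also stood apart in genes of the circadian clock. These 16 genes were chosen after the members' values were seen, because Fabp7 RNA is known to rise and fall over the day in mouse brain; the labels do not state the time of dissection. That library was the highest of the 8 for 9 of the 16 and the lowest for 3, or 12 in all, whereas it was the highest or lowest for 25.9% of all genes tested. Clock genes are regulated together, so the 12 are not separate observations, and the count describes a single library. Ciart, a clock repressor, was at 12.06 CPM in BPA replicate 3, against 5.42 to 7.11 CPM in the other 7 libraries, and Dbp, a clock output gene, at 14.5 CPM against 8.20 to 11.1 CPM. Nr1d1, the repressor REV-ERB alpha, was at 83.7 CPM against 62.2 to 76.5 CPM. Arntl, which encodes BMAL1, was at 28.5 CPM against 29.6 to 36.3 CPM. For comparison, Fabp7 in that library was at 9.54 CPM against 13.2 to 16.4 CPM. Tef, an output gene of the same family as Dbp, went the other way from Dbp, at 214 CPM against 231 to 265 CPM, and Clock was at 184 CPM against 188 to 205 CPM. Npas2, Hlf, Per1 and Per3 lay inside the range of the other 7. Ciart, Dbp, Nr1d1, Tef and Arntl overlap a gene on the opposite strand. The part of these genes in the level of Fabp7 was not tested.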
